A study of Mus musculus with 126 samples.

Results

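Dazl, Ddx4, Taf7l, Stk31, Slc25a31, D1Pas1, Nxf2, Ctcfl and Rnf17 are germ cell genes described as having promoters rich in CpG dinucleotides that are methylated in somatic cells. These 9 genes were taken by name from a count table of 23420 genes measured by RNA-seq in mouse embryonic stem cells, and their levels were compared between cells in which DNA methylation, histone deacetylation, both or neither were removed. J1, a line of embryonic stem cells, served as wild type. The triple knockout (TKO) cells were of the same labelled strain and carried the genotype Dnmt1-/-, Dnmt3a-/-, Dnmt3b-/-, which removes the enzymes that set and maintain DNA methylation. Both genotypes were cultured on gelatin-coated dishes in serum medium with leukaemia inhibitory factor, and were given Trichostatin A (TSA), an inhibitor of histone deacetylases, at a labelled 5 ng/µl for 36 h, or 0.0033% DMSO, its solvent. This gave 4 groups of 2 libraries, which the design text calls biological replicates. Whether the TKO cells are 1 clone is not given in the sources used here. The other 118 samples of the series, on chromatin, were not analysed here, so neither methylation nor acetylation at these promoters was measured here.

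In mammals many genes used only in germ cells carry dense CpG promoters, and in somatic lineages these are among the promoters most often silenced by DNA methylation. Their repression in embryonic stem cells is also tied to histone deacetylases and to the Polycomb complex PRC1.6, which binds the E-box CACGTG through MAX and MGA and binds a second site through E2F6. The 9 genes serve different steps of germ cell life. Dazl binds RNA and controls translation, Ddx4 and D1Pas1 are DEAD-box RNA helicases, Taf7l and Ctcfl are germ cell relatives of the general transcription factor subunit TAF7 and of CTCF, Nxf2 is a member of the mRNA export factor family, Slc25a31 is a mitochondrial ADP/ATP carrier, and Stk31 and Rnf17 are tudor domain proteins.

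Promoter sequences from RefSeq (build GRCm38.p6, 250 bases before to 50 bases after the gene start) were matched by symbol for 7 of the 9 genes. The 5 printed were chosen after the expression values were seen because they cover several of the responses described later. They are printed 5′ to 3′ on the strand of the gene, with every CpG in capitals.
Dazl promoter, chr17:50293571-50293870, minus strand: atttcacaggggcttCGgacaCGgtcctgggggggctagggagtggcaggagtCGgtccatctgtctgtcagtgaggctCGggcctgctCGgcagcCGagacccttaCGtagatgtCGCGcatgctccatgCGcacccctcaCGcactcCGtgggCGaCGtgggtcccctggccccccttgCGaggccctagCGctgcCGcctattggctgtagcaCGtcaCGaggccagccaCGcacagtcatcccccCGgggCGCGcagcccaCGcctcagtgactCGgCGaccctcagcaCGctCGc
Nxf2 promoter, chrX:134964705-134965004, minus strand: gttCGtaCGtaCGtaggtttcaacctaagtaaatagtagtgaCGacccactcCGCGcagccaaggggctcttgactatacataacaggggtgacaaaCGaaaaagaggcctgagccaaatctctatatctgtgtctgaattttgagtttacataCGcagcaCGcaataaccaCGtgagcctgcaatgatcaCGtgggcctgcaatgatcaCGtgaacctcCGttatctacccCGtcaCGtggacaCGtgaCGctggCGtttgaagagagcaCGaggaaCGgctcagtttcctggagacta
Taf7l promoter, chrX:134476441-134476740, minus strand: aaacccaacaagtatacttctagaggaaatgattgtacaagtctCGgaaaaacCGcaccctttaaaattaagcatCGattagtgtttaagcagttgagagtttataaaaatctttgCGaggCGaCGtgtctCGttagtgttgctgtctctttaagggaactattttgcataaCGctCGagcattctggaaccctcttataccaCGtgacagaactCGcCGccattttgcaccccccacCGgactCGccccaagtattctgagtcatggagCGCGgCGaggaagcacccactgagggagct
D1Pas1 promoter, chr1:186967166-186967465, plus strand: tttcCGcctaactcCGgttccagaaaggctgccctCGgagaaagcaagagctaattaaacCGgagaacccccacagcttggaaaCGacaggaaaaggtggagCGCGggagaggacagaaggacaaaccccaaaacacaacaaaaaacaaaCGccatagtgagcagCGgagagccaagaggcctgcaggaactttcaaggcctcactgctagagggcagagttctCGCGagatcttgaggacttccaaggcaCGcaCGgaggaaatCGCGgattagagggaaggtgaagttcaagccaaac
Ddx4 promoter, chr13:112652261-112652560, minus strand: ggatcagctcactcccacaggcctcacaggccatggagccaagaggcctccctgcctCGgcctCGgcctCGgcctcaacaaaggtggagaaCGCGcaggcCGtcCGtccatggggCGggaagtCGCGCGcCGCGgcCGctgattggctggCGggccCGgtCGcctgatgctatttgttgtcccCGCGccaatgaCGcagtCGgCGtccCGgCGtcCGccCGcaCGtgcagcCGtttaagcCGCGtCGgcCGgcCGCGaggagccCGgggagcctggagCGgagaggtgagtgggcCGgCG

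The promoters of Dazl and Nxf2 belong to genes with a large response to TKO alone, that of Taf7l to a gene with a larger response to TSA alone, that of D1Pas1 to a gene called higher only where TSA was given, and that of Ddx4 to the member that was called lower with both changes. The Ddx4 promoter held 38 CpGs in 300 bases, more than 95.05% of the 32851 promoters of the RefSeq table. Dazl and Stk31 held 28 each, Slc25a31 22, Nxf2 20, Taf7l 17 and D1Pas1 15, against a median of 7 over all promoters. A GC content of at least 50% with an observed to expected CpG ratio of at least 0.6, the usual base composition of a CpG island, was met by 6 of the 7, against 33.5% of all promoters. Taf7l was the exception, with a GC content of 47.0% and a ratio of 1.03. The genes were listed as having such promoters, so a share above that of all promoters was built into the choice of genes. The promoter with the most CpGs was thus that of the member called lower with both changes, and a relation of CpG number to response was not tested. The Dazl entry starts 21 bases from the start in the deposited table, and the other 6 start at the deposited position.

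The letters searched on both strands were CACGTG (MAX), GGGCGG (SP1), CCGGAAG (GABPA) and GCCATNTT (YY1) and the palindromic NRF1 motif, for the 5 factors the series assayed, and GCGGGAA (E2F). CACGTG was found in 5 of the 7 promoters, against 7.15% of all promoters and 11.5% of promoters that meet the CpG island composition. Nxf2 held it 5 times, first bases -80, -61, -42, -15 and -7 from the gene start, and the other 4 genes held it once. None of these matches overlapped another of the motifs. The 4 single matches are printed with 10 bases on each side, the motif in capitals, because they lie in genes that differ widely in response.
Ddx4 window, chr13:112652324-112652349, minus strand: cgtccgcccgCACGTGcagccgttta
Taf7l window, chrX:134476524-134476549, minus strand: cctcttatacCACGTGacagaactcg
Stk31 window, chr6:49395474-49395499, plus strand: gccggccaccCACGTGaccagggctg
Slc25a31 window, chr3:40708768-40708793, plus strand: caactggaaaCACGTGttatggtcac

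GGGCGG was found in 3 of the 7 promoters, against 35.7% of all promoters and 75.8% of those that meet the CpG island composition. GCGGGAA was found in 2 (4.60% and 10.4%), GCCATNTT in 1 (6.05% and 8.59%), the NRF1 motif in 1 (0.971% and 2.51%) and CCGGAAG in none (8.86% and 19.2%). The match for NRF1 lay in the Stk31 promoter and that for YY1 in the Taf7l promoter. In Ddx4 the E2F match shared bases with a GGGCGG match. Dazl and D1Pas1 held none of the 6 motifs. A match describes letters in this window and does not show binding.

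**Figure D1:**
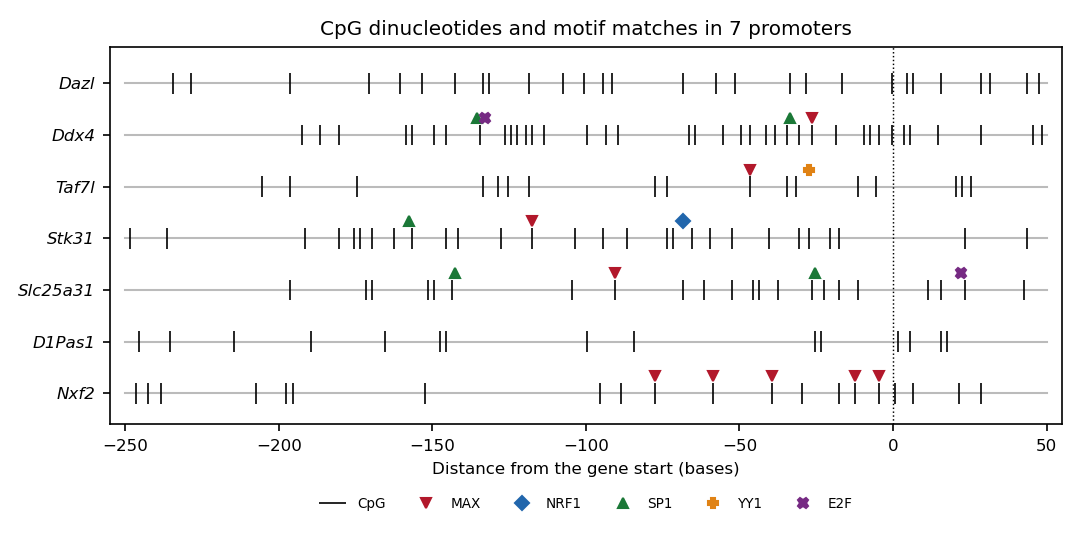
Positions of CpG dinucleotides (ticks) and motif matches (symbols) in the 7 matched promoters, against distance from the gene start in bases. The E-box of MAX is marked in 5 promoters, 5 times in Nxf2, and the ticks are densest in Ddx4, with 38 CpGs.

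Levels are in CPM, the counts of a gene per 1000000 counts in its library, with library sizes adjusted by edgeR's TMM factors. The libraries held 13280631 to 15542527 counts each, so 3 counts correspond to 0.193 to 0.226 CPM before that scaling, and intervals and floors from counts cover counting error only. The deleted genes followed the labels. Dnmt1 was at 360 to 464 CPM in the 4 wild type libraries and at 123 to 134 in the 4 TKO libraries, Dnmt3a at 152 to 236 and 25.9 to 39.1, and Dnmt3b at 343 to 595 and 43.6 to 76.1. The cells carried stem cell markers in all groups, as given further on. The 2 libraries of a group differed by more than sampling noise in every group (chi-square per degree of freedom 5.28 to 12.2). Libraries of wild type cells were uneven for the members. All 9 were lower in replicate 1 than in replicate 2 of wild type DMSO, and 8 of 9 in wild type TSA, against 48.9% and 50.3% of all tested genes. The cause was not tested. In bulk RNA, a change in the share of cells that express a gene cannot be told apart from a change of its level per cell. With 2 libraries a group, groups that do not overlap are common. Depending on the pair of groups and the direction, this held for 29.4% to 42.5% of all tested genes. Separations over more than 2 groups, given below for single genes, have no such share beside them. How common they are among all genes is not given here.

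Dazl (chromosome 17, 50279394 to 50293599 in mm10, the build of the deposited table) was at 8.42 and 12.3 CPM in wild type cells with DMSO and at 25.8 and 58.2 with TSA, and in TKO cells at 134 and 148 with DMSO and at 267 and 259 with TSA. The 4 groups did not overlap, and TKO alone brought it to 53.5% of its level with both changes, TSA alone to 16.0%. The wild type TSA libraries were the farthest apart of any group on the log scale. Ddx4 (chromosome 13, 112598333 to 112652310) went the other way, at 19.3 and 25.8 CPM in wild type cells with DMSO and at 22.3 and 18.0 with TSA, and in TKO cells at 17.6 and 20.3 with DMSO and at 8.72 and 7.22 with TSA. Its first 3 groups overlapped, and both TKO TSA libraries lay below all 6 others. D1Pas1 (chromosome 1, 186967416 to 186970627, a gene with 1 exon) was at 5.64 and 7.05 CPM in wild type cells with DMSO and at 12.8 and 17.0 with TSA, and in TKO cells at 4.17 and 3.64 with DMSO and at 16.8 and 19.6 with TSA. Its high libraries were those given TSA, in either genotype, and those of TKO DMSO were its lowest.

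Among the genes of the transcription machinery, Taf7l (X chromosome, 134460116 to 134476490) was at 4.99 and 5.83 CPM in wild type cells with DMSO and at 34.4 and 37.9 with TSA, and in TKO cells at 16.8 and 18.8 with DMSO and at 86.8 and 70.7 with TSA. All 4 groups stood apart, with wild type TSA above TKO DMSO, the reverse of the order of Dazl. Ctcfl (chromosome 2, 173093609 to 173119525) was at 1.14 and 1.62 CPM in wild type cells with DMSO and at 2.99 and 4.21 with TSA, and in TKO cells at 12.9 and 18.5 with DMSO and at 17.0 and 17.5 with TSA. Its TKO groups overlapped and stood above every wild type library. Nxf2 (X chromosome, 134944531 to 134964754), the export factor gene, had 3 and 5 counts in wild type DMSO, which is 0.214 and 0.405 CPM. With TSA these cells had 1.89 and 2.31 CPM, and TKO cells had 8.34 and 8.00 with DMSO and 8.86 and 6.65 with TSA, so its TKO groups also overlapped.

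Slc25a31 (chromosome 3, 40708871 to 40726094), the ADP/ATP carrier gene, rose in steps, from 3.78 and 4.94 CPM in wild type cells with DMSO to 7.94 and 9.92 with TSA, and in TKO cells from 16.0 and 14.9 to 25.2 and 21.0. No library of one group entered the range of another. Of the tudor domain genes, Stk31 (chromosome 6, 49395604 to 49469502) was at 18.0 and 27.9 CPM in wild type cells with DMSO and at 42.4 and 54.9 with TSA, and in TKO cells at 64.6 and 57.7 with DMSO and at 50.0 and 37.3 with TSA. Its highest group was TKO DMSO, and the group with both changes overlapped wild type TSA. Rnf17 (chromosome 14, 56402697 to 56525031) was at 87.7 and 135 CPM in wild type cells with DMSO and at 162 and 214 with TSA, and in TKO cells at 100.4 and 123 with DMSO and at 192 and 210 with TSA. It divided by treatment alone, with all 4 TSA libraries above all 4 DMSO libraries. No exon base of the 9 genes lies in an exon of another gene of the table.

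**Figure D2:**
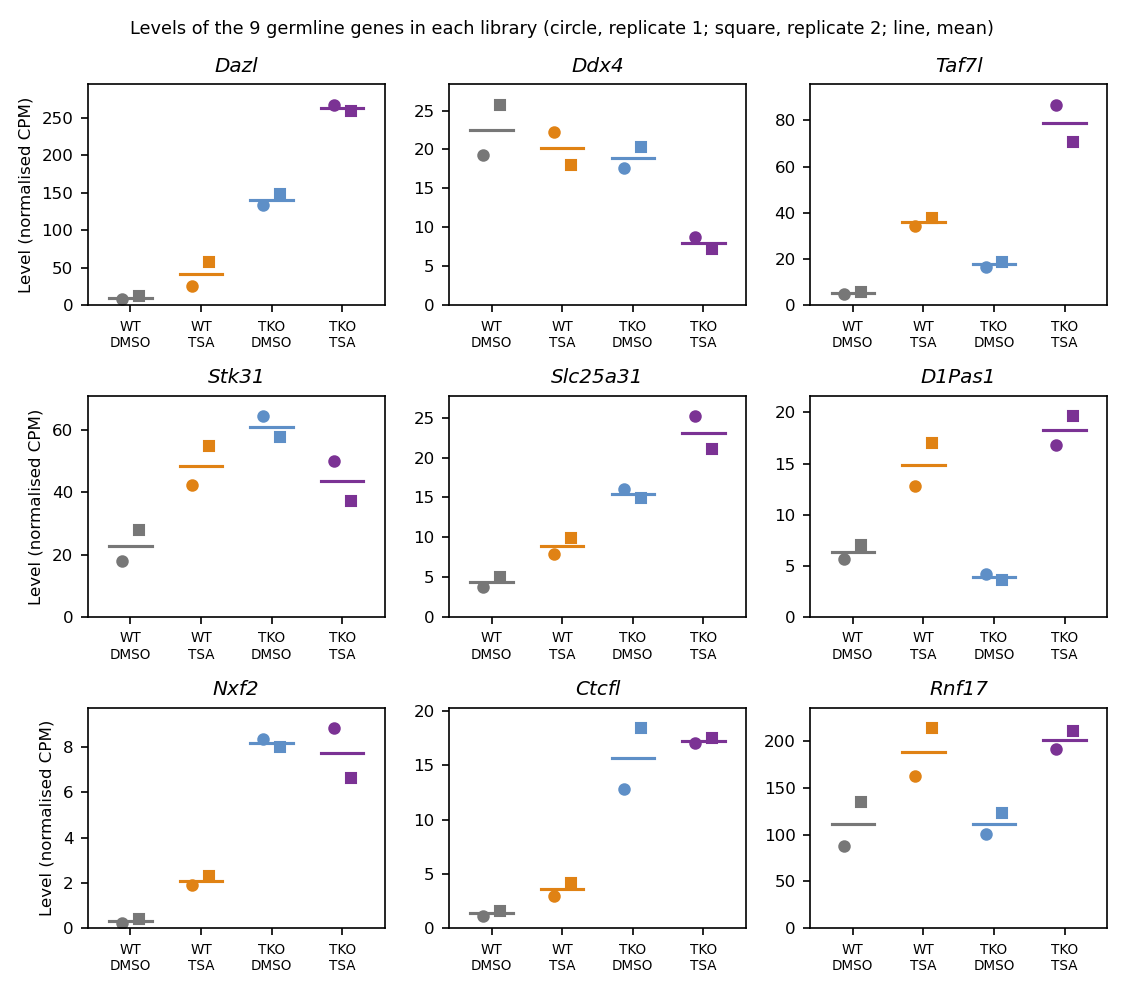
Level in normalised CPM (vertical axes from 0) of each gene in the 8 libraries, by group; circles are replicate 1, squares replicate 2, and lines the mean of 2. Dazl, Taf7l and Slc25a31 are highest in TKO TSA with 4 separate groups, Nxf2 and Ctcfl are high in both TKO groups, D1Pas1 and Rnf17 in both TSA groups, Stk31 is highest in TKO DMSO, and Ddx4 is lowest in TKO TSA.

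Blocking histone deacetylation alone, wild type TSA against wild type DMSO, raised 8 of the 9 genes. Called higher were 27% of the 15822 genes tested, at an adjusted p below 0.05 in edgeR's quasi-likelihood test. Nxf2 changed by a log2 fold change of 2.75 ± 0.43 (SE; edgeR adjusted p 0.000408) and Taf7l by 2.74 ± 0.16 (2.79e-06), which is a 6.68-fold rise of Taf7l. Dazl rose 4.06-fold (2.02 ± 0.32, edgeR adjusted p 0.000415), and without wild type TSA replicate 2, its higher library, its log2 fold change was 1.32. Ctcfl, D1Pas1, Stk31 and Slc25a31 rose 2.61-, 2.35-, 2.13- and 2.05-fold, with edgeR adjusted p-values of 0.000616 to 0.00436. Rnf17, already the most abundant per length in wild type DMSO, rose 1.69-fold (edgeR adjusted p 0.00603), and without wild type TSA replicate 2 its log2 fold change was 0.54 with an edgeR adjusted p of 0.0535. Ddx4 was not called (-0.16 ± 0.18, edgeR adjusted p 0.479). The median of the 9 was 1.23, beside 0.01 over all genes tested.

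Loss of the methyltransferases alone, TKO DMSO against wild type DMSO, raised 6 of the 9, where 9.62% of all tested genes were called higher. Nxf2 rose 26.2-fold (log2 fold change 4.71 ± 0.37 SE, edgeR adjusted p 1.68e-05), Dazl 13.7-fold (3.77 ± 0.32, 2.85e-05) and Ctcfl 11.4-fold (3.51 ± 0.29, 2.43e-05). The Nxf2 fold rests on 8 counts in wild type DMSO, and the ratio of summed counts, 232 to 8, was 26.9 after scaling, with an exact 95% binomial interval of 13.4 to 63.2. Slc25a31 rose 3.56-fold, Taf7l 3.29-fold and Stk31 2.68-fold, with edgeR adjusted p-values of 8.80e-05 to 0.000955. The remaining 3 genes did not pass. Rnf17 had a log2 fold change of 0.01 ± 0.19 (edgeR adjusted p 0.988) and Ddx4 of -0.25 ± 0.18 (0.378). D1Pas1 had -0.69 ± 0.23 (edgeR adjusted p 0.0565), and both TKO libraries lay below both wild type libraries, as for 30.5% of all tested genes. It was called lower without the filter on low counts (edgeR adjusted p 0.0478) and with the replicate number as a block (0.0290). No rise of these 3 genes was called with TKO alone, and methylation of their promoters was not measured here. The set is therefore called here by its rule, as 9 germline genes. The median of the 9 was 1.72, beside -0.01 over all genes tested.

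The single changes were set against each other by comparing TKO DMSO with wild type TSA, where 7 of the 9 differed, as did 57.6% of all tested genes. Called higher in TKO DMSO were 4, Ctcfl (4.36-fold), Nxf2 (3.89-fold), Dazl (3.36-fold) and Slc25a31 (1.73-fold), where 28% of all tested genes were called higher. Called lower were 3, D1Pas1 (3.79-fold), Taf7l (2.03-fold) and Rnf17 (1.69-fold), where 29.6% were called lower. These edgeR adjusted p-values ran from 3.24e-05 to 0.00525. The log2 fold change of Dazl, 1.75, was 2.45 without wild type TSA replicate 2. The Rnf17 call was lost without TKO DMSO replicate 1 (log2 fold change -0.61, edgeR adjusted p 0.0603). Stk31 (0.33 ± 0.20 on the log2 scale, edgeR adjusted p 0.172) and Ddx4 (-0.09 ± 0.18, 0.694) were not called. Called higher with each single change were 6 members, Dazl, Ctcfl, Slc25a31, Stk31, Taf7l and Nxf2, a pattern of 3.79% of all tested genes. D1Pas1 and Rnf17 were called higher with TSA alone and were not called with TKO alone, a pattern of 20.1%.

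With both changes together, TKO TSA against wild type DMSO, all 9 genes were called, where 61.9% of tested genes were. Of the 9, 8 were higher and 1 lower, against 31.7% of tested genes called higher and 30.2% lower. Dazl rose 25.5-fold (log2 fold change 4.67 ± 0.32 SE, edgeR adjusted p 1.48e-06), Nxf2 24.8-fold (4.63 ± 0.37, 3.35e-06; counting interval 12.7 to 59.6), Taf7l 14.6-fold (3.86 ± 0.16, 1.57e-07) and Ctcfl 12.5-fold (3.65 ± 0.28, 2.98e-06). Slc25a31 rose 5.31-fold, D1Pas1 2.88-fold, Stk31 1.91-fold and Rnf17 1.81-fold, with edgeR adjusted p-values of 4.31e-06 to 0.00249. Ddx4 fell 2.83-fold (-1.50 ± 0.19, edgeR adjusted p 6.55e-05), the only member lower with both. Each single change and the joint change are thus measured against the same 2 wild type DMSO libraries.

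**Figure D3:**
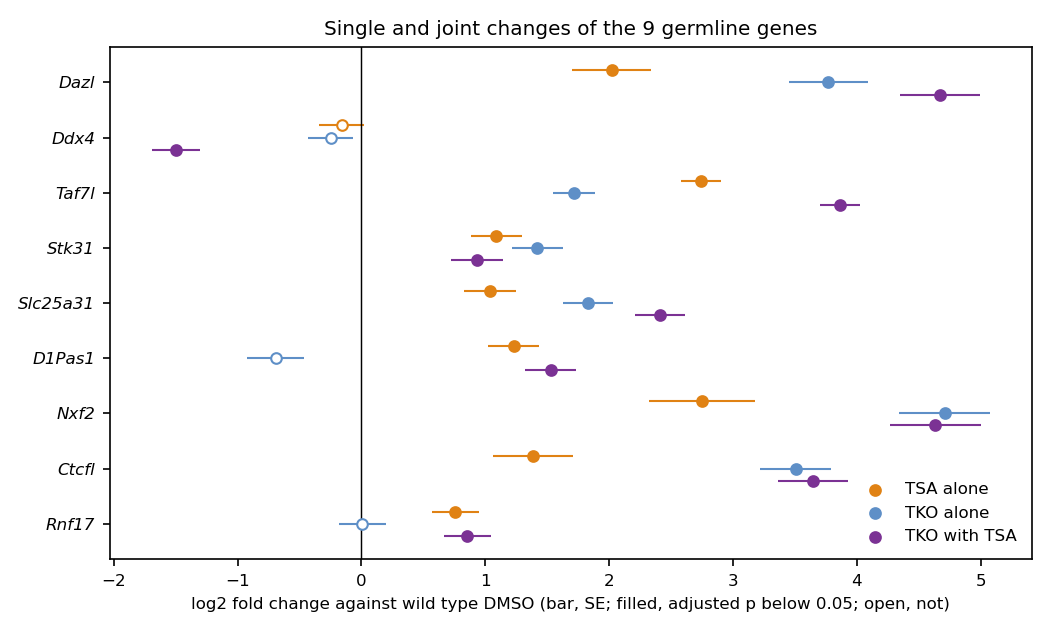
Log2 fold change against wild type DMSO of each gene with TSA alone (orange), TKO alone (blue) and TKO with TSA (purple); bars are SE, filled points passed an adjusted p of 0.05 and open points did not. The purple points lie to the right of both others for Dazl, Taf7l, Slc25a31, D1Pas1 and slightly for Ctcfl and Rnf17, and to the left of zero for Ddx4.

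Whether the joint change exceeded each single one was tested by comparing TKO TSA with TKO DMSO and with wild type TSA. Dazl, Taf7l and Slc25a31 were called above both, a pattern of 5.95% of all tested genes, and Ddx4 was called below both, a pattern of 3.22%. Adding TSA to TKO raised 5 genes, where 30.8% of tested genes were called higher. D1Pas1 rose 4.66-fold, Taf7l 4.42-fold, Dazl 1.87-fold, Rnf17 1.80-fold and Slc25a31 1.49-fold, with edgeR adjusted p-values of 1.89e-06 to 0.0145. Dazl and Slc25a31 were the least secure of these. Dazl was not called without TKO DMSO replicate 1 (log2 fold change 0.83, edgeR adjusted p 0.0788) or by DESeq2 (0.91, adjusted p 0.0686), and Slc25a31 was not called without TKO DMSO replicate 1 (0.63, edgeR adjusted p 0.0521), TKO DMSO replicate 2 (0.52, 0.0851) or TKO TSA replicate 1 (0.44, 0.112). Ddx4 fell 2.38-fold (edgeR adjusted p 0.000270), where 27.9% of tested genes were called lower.

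Ctcfl and Nxf2 showed no called change when TSA was added to TKO, at 0.14 ± 0.21 and -0.08 ± 0.23 on the log2 scale (edgeR adjusted p 0.578 for Ctcfl, 0.781 for Nxf2), and the sign for Nxf2 turned with total counts as the only scaling (0.07). For Stk31 both TKO TSA libraries lay below both TKO DMSO libraries, as for 39.5% of all tested genes. It was not called, at -0.49 ± 0.20 (edgeR adjusted p 0.0530), and leaving out single libraries put it at -0.72 to -0.29. It was called lower by DESeq2 (adjusted p 0.0405) and in edgeR without the filter on low counts (0.0156), with the replicate number as a block (0.0366) and in a fit of the 2 groups alone (0.0121). Removing the methyltransferases under TSA raised 5 genes, where 10% of tested genes were called higher. Dazl rose 6.28-fold, Ctcfl 4.81-fold, Nxf2 3.69-fold, Slc25a31 2.59-fold and Taf7l 2.18-fold, with edgeR adjusted p-values of 0.000194 to 0.000846. The log2 fold change of Dazl, 2.65, was 3.35 without wild type TSA replicate 2. Ddx4 fell 2.53-fold (edgeR adjusted p 0.00110), where 8.38% were called lower. Rnf17 (0.10 ± 0.19 on the log2 scale), D1Pas1 (0.30 ± 0.19) and Stk31 (-0.16 ± 0.20) were not called (edgeR adjusted p 0.298 to 0.761).

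On the linear scale, the gain in CPM with both changes can be set beside the sum of the gains with each, with an SD combined from the 4 groups and no test. Dazl gained 253 CPM with both against a sum of 162, a difference of 90.5 ± 25.8. Taf7l gained 73.3 against 43.1, a difference of 30.2 ± 11.8, and D1Pas1 11.9 against 6.09, a difference of 5.81 ± 3.74. The joint gain of these 3 was therefore above the sum by more than the combined SD. For D1Pas1 the sum joins a gain of 8.53 CPM with TSA alone and a change of -2.44 with TKO alone, so it lies below the TSA gain. The level of D1Pas1 with both was not called above that with TSA alone (log2 fold change 0.30, edgeR adjusted p 0.298). Stk31 fell short of it, with a gain of 20.7 CPM against a sum of 64.0, a difference of -43.2 ± 15.1. Nxf2 gained 7.45 against 9.65 (-2.21 ± 1.61). The differences of Slc25a31 (3.10 ± 3.47), Ctcfl (-0.61 ± 4.09) and Rnf17 (12.5 ± 53.6) were within the combined SD. Ddx4 lost 14.6 CPM with both changes, where the single changes summed to a loss of 5.98 CPM, a difference of -8.59 ± 5.87.

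On the log2 scale, the interaction test asks whether the joint fold differs from the product of the single folds. It was called for 2 members, both negative, where 0.468% of tested genes were called negative. The log2 fold change by TSA among TKO libraries less that among wild type libraries was -2.83 ± 0.49 for Nxf2 (edgeR adjusted p 0.0284) and -1.58 ± 0.29 for Stk31 (0.0324). Both calls depend on single libraries. Nxf2 was called in 2 of the 8 fits that left out 1 library, those without wild type DMSO replicate 2 or TKO TSA replicate 1, and in the other 6 the difference was -2.41 to -2.97 with edgeR adjusted p-values of 0.0535 to 0.127. Stk31 was called in 3 of 8, those without wild type DMSO replicate 2, wild type TSA replicate 1 or TKO TSA replicate 1, and in the other 5 it was -1.28 to -1.65 with edgeR adjusted p-values of 0.0600 to 0.132. Not called were Ctcfl (-1.24 ± 0.39), Dazl (-1.12 ± 0.41), Ddx4 (-1.09 ± 0.27), Taf7l (-0.60 ± 0.21), Slc25a31 (-0.46 ± 0.27), Rnf17 (0.09 ± 0.26) and D1Pas1 (0.99 ± 0.30), with edgeR adjusted p-values of 0.0771 to 0.921. Single libraries bear on these as well. Dazl was at -0.42 without wild type TSA replicate 2 and was called without wild type TSA replicate 1 (-1.60, edgeR adjusted p 0.00978). Ddx4 was called by DESeq2 (adjusted p 0.0294) and in edgeR without the filter on low counts (0.0200), with the replicate block (0.0348) and without wild type DMSO replicate 2 (0.0306). At an unadjusted p below 0.05 in edgeR, 7 of the 9 passed. The share of all tested genes at that threshold is not given here, so this and later unadjusted counts have no background beside them.

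**Figure D4:**
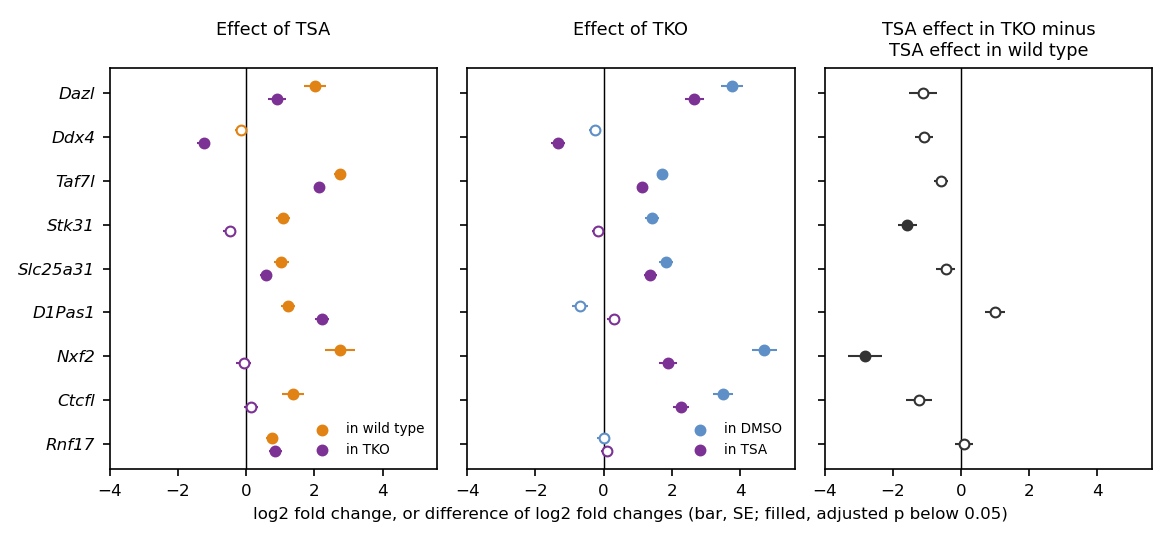
Log2 fold change of TSA in wild type and in TKO (left), of TKO in DMSO and in TSA (middle), and the difference of the TSA effects (right), with SE bars; filled points passed an adjusted p of 0.05. Nxf2 and Stk31 are the filled points on the right, at -2.83 and -1.58, and the TSA effect of Nxf2, Ctcfl and Stk31 is open in TKO.

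Per kilobase of exon, the order of the genes changed between groups. In wild type DMSO Rnf17 was highest at 21.6 CPM per kilobase, followed by Ddx4 at 7.91, Stk31 at 7.08 and Dazl at 3.52, and Nxf2 was lowest at 0.130. In TKO TSA Dazl was highest at 89.4, followed by Taf7l at 40.7 and Rnf17 at 39.1, and Ddx4 was lowest at 2.80. Ddx4 and Stk31 in wild type DMSO, and Taf7l and Rnf17 in TKO TSA, differed by less than their SDs.

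Of the 9 genes, 5 have broadly expressed relatives, which give a scale for these levels. As a share of its relative per kilobase, Taf7l went from 3.73 ± 0.14% to 21.4 ± 0.45% of Taf7 when TSA was given to wild type cells and from 10.9 ± 1.69% to 49.8 ± 2.74% when it was given to TKO cells (SD, n = 2). Ctcfl went from 0.748 ± 0.15% of Ctcf in wild type DMSO to 17.7 ± 2.63% in TKO TSA, and Nxf2 from 0.205 ± 0.11% to 5.53 ± 1.35% of Nxf1 (SD, n = 2). Slc25a31 reached 2.17 ± 0.38% of Slc25a4 and 4.64 ± 0.65% of Slc25a5 in TKO TSA, and D1Pas1 3.38 ± 0.69% of Ddx3x (SD, n = 2). None of Taf7, Slc25a4, Slc25a5, Ddx3x, Nxf1 and Ctcf was called with TKO alone by edgeR or DESeq2 (in edgeR 4 of the 6 had an unadjusted p below 0.05), while Ddx3x (log2 fold change -0.74), Ctcf (-0.59), Slc25a5 (-0.43) and Nxf1 (-0.28) fell with TSA alone and Ddx3x (-0.83) and Ctcf (-0.90) with both changes. The shares of Ctcfl and D1Pas1 thus include a fall of their relatives. D1Pas1 resembles Ddx3x in sequence and Nxf2 has relatives on the X chromosome, so the split of reads between them is uncertain. With TSA alone D1Pas1 rose (log2 fold change 1.23) where Ddx3x fell. With TKO alone both had negative log2 fold changes, -0.69 for D1Pas1 and -0.29 for Ddx3x, neither called in the main fit. Sharing of reads was not tested.

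**Figure D5:**
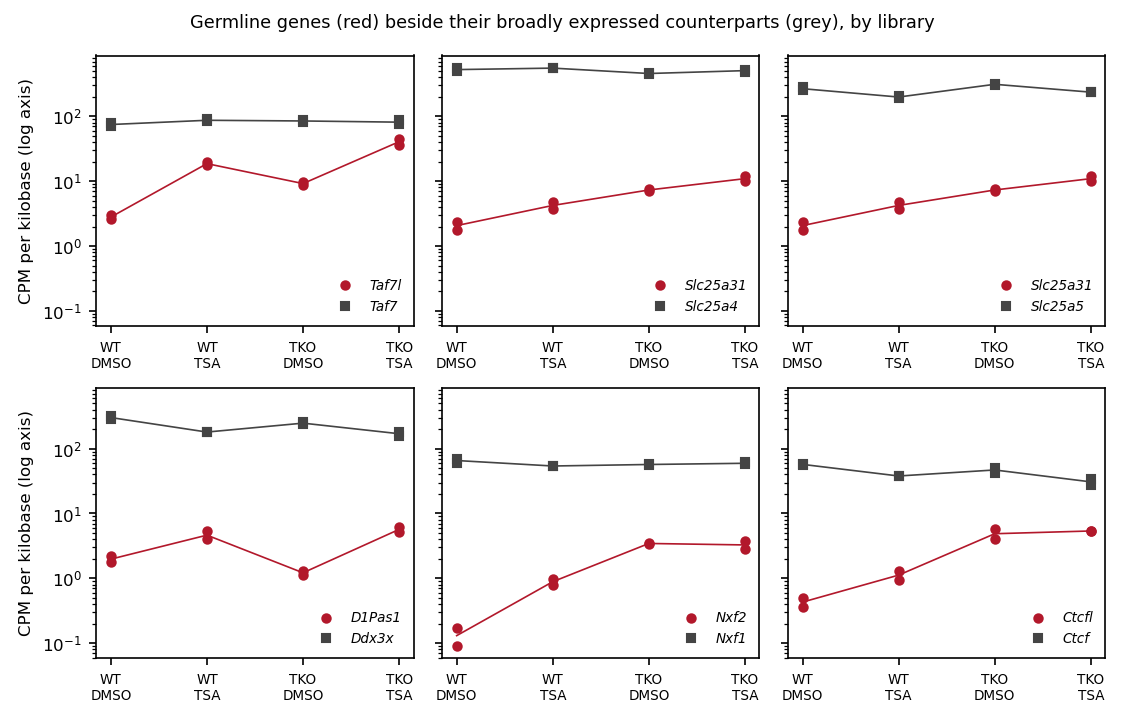
Level in CPM per kilobase (log axis) of 5 germline genes (red) and their broadly expressed relatives (grey) in the 4 groups; points are libraries and lines join group means. Taf7l comes nearest to its relative, at 49.8% of Taf7 in TKO TSA, while the other germline genes stay below 18% in every group mean.

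A further 19 germline genes often described as having CpG island promoters were all tested. With TSA alone 12 were called higher and 1 lower, with TKO alone 11 and 1, and with both 16 and 1. Over all tested genes 27% were called higher and 25.9% lower with TSA alone, 9.62% and 10.7% with TKO alone, and 31.7% and 30.2% with both, and these shares serve for the lists that follow. Their median log2 fold changes were 0.85, 1.34 and 1.90, beside 0.01, -0.01 and 0.00 over all genes tested. Asz1, a piRNA pathway gene of germ cell mitochondria, had the largest joint change, from 0.579 ± 0.21 CPM in wild type cells with DMSO to 3.25 ± 1.84 with TSA, and in TKO cells from 17.4 ± 1.51 to 71.4 ± 2.54 (SD, n = 2). Dpep3, a dipeptidase gene of the testis, and Tex101, a germ cell surface protein gene, also rose with each change and further with both (log2 fold change with both 5.36 ± 0.46 and 3.89 ± 0.42 SE, edgeR adjusted p 5.10e-06 and 2.00e-05). The folds of these genes rest on few counts in wild type DMSO, 6 and 9 for Asz1, 3 and 4 for Dpep3 and 10 and 14 for Tex101. Brdt, a testis bromodomain gene, followed TSA like D1Pas1 and Rnf17, with log2 fold changes of 3.52 with TSA alone, 0.31 with TKO alone (edgeR adjusted p 0.631) and 3.96 with both. None of the 19 was called for the interaction by edgeR, where 213 of the 15822 genes tested were. With so few calls over all genes, none among 19 says little about this list. In edgeR 4 of the 19 had an unadjusted p below 0.05. DESeq2 called 1 of them, and 394 over all genes.

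The subunits of PRC1.6 were examined as the repressor that binds E-boxes at germline promoters. Of 12 subunit genes, all tested, 5 were called lower with TSA alone and none higher (by DESeq2 also 5 and none, and none higher at an unadjusted p below 0.05 in edgeR), 2 lower and 1 higher with TKO alone, and 5 lower and 2 higher with both. Of all tested genes 25.9% were called lower with TSA alone and 30.2% with both. The largest joint decreases were those of Tfdp1 (154 ± 19.5 to 68.8 ± 5.75 CPM), Rnf2 (216 ± 26.1 to 105 ± 22.8), Cbx3 (23.6 ± 4.38 to 11.8 ± 3.75) and Ring1 (8.88 ± 0.65 to 4.66 ± 0.11), from wild type DMSO to TKO TSA (SD, n = 2; edgeR adjusted p 1.22e-05 to 0.00335). Tfdp1, the partner of E2F proteins, also fell with TKO alone (log2 fold change -0.90, edgeR adjusted p 0.000472), as did E2f6 (-0.41, 0.0439). The 2 called higher with both were Rybp (log2 fold change 0.33, edgeR adjusted p 0.0299) and Max (0.30, 0.0197). Mga was called lower with TSA alone (-0.36, edgeR adjusted p 0.0221) and higher with TKO alone (0.37, 0.039). With both changes Mga (-0.28, edgeR adjusted p 0.0521) and E2f6 (-0.24, 0.122) were not called. The part of these changes in the response of the 9 genes was not tested.

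Markers of other states moved as well. Of 8 genes of primordial germ cell specification, 7 were tested, and with both changes 3 were called higher and 2 lower, where 31.7% and 30.2% of all tested genes were. Tfap2c rose 5.34-fold, Dppa3 5.02-fold and Kit 2.43-fold, and Prdm14 fell 3.52-fold, while Nanos2 had 4 counts in wild type TSA replicate 2 and none in the other 7 libraries. The summed level of the 8 was 163 to 188 CPM in wild type cells with DMSO and 302 to 328 with TSA, against 221 to 262 and 443 to 492 in TKO cells. Genes of late sperm and oocytes stayed low. Of 11, 8 were below 1 CPM in every library, Prm1 had no count, 4 were tested, and none was called with both changes by edgeR or DESeq2, nor had any an unadjusted p below 0.05 in edgeR. With TKO alone edgeR called 1 of the 4 higher and DESeq2 none, where edgeR called 9.62% of all tested genes higher. When TSA was added to TKO, edgeR called 3 of the 4 lower and DESeq2 2. There edgeR called 27.9% of all tested genes lower. The summed level of the 11 was 6.36 to 15.9 CPM in the 8 libraries, and Zp3 was the highest of them at 4.53 to 12.2 CPM.

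Stem cell markers were present and changed with treatment. Pou5f1 was at 913, 409, 940 and 350 CPM, Nanog at 251, 188, 420 and 349, Sox2 at 397, 320, 480 and 360, Zfp42 at 593, 310, 938 and 376, Esrrb at 314, 112, 498 and 162, Klf4 at 27.3, 15.3, 47.1 and 23.3, and Tdgf1 at 694, 385, 702 and 126, as means of wild type cells with DMSO and with TSA and of TKO cells with DMSO and with TSA. With TSA alone 6 of 7 were called lower, where 25.9% of all tested genes were, with TKO alone 4 of 7 were called higher, where 9.62% were, and with both changes 1 was called higher and 4 lower, where 31.7% and 30.2% were. Of 8 markers of differentiated lineages, 5 were called higher and 2 lower with both changes, and 3 and 2 by DESeq2. Sox17 and Gata6, of endoderm, rose 27.2-fold and 4.03-fold. In wild type DMSO Sox17 had only 7 and 6 counts and Gata6 11 and 15. T, of mesoderm, fell 12.4-fold and Pax6, of neural cells, fell 3.59-fold. The summed level of the list was 31.8 to 46.7 CPM in wild type DMSO and 37.5 to 43.7 in TKO TSA. Of 6 fibroblast markers, 3 were called higher and 2 lower with both, where 31.7% and 30.2% of all tested genes were. Pdgfra rose 8.30-fold, Thy1 2.44-fold and Pdgfrb 1.78-fold, and Col3a1 fell 5.18-fold. Their summed level was 38.8 to 46.2 CPM in wild type cells with DMSO and 83.6 to 99.3 with TSA, against 21.2 to 21.3 and 43.7 to 66.4 in TKO cells. The part of these markers in the results for the 9 genes was not tested.

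The 9 genes did not share one profile over the 8 libraries. Against the mean of their centred log2 CPM, Slc25a31 (r = 0.978), Dazl (0.968), Nxf2 (0.957), Ctcfl (0.930) and Taf7l (0.901) were close to it, Stk31 (0.802), Rnf17 (0.621) and D1Pas1 (0.405) less so, and Ddx4 was opposed (-0.694). Outside the set, the genes at 1 CPM or more on average that were most like that mean profile were Syce1 (r = 0.994), Ccdc169 (0.994), Pls1 (0.993), Myo6 (0.992) and Gm5635 (0.991). Syce1, which encodes a part of the synaptonemal complex of meiosis, rose from 19.4 to 38.0 CPM with TSA in wild type cells and from 49.0 to 67.7 CPM with TSA in TKO cells. These correlations over 8 libraries of 4 groups are given as a description, and the members enter the mean they are compared with.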

How the data were processed

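RNA-seq libraries of rRNA-depleted total RNA were made with a strand-directional kit, per the labels' protocols. The authors deposited raw counts per gene, with exon coordinates and a summed exon length as another value, per the file headers. TopHat2 2.0.13, featureCounts 1.4.5-p1, edgeR 3.22.3 and mm10 are named in the submitters' processing notes. Which annotation was used, whether strand was counted and how reads with several matches were handled are not given in the sources used here. Groups and replicate numbers came from the titles. In edgeR 4.0.16 (R 4.3.3), 15822 genes passed filterByExpr, library sizes were scaled by TMM, and a quasi-likelihood fit over the 8 libraries estimated 1 mean for each group (4 residual degrees of freedom). Tests were two-sided, adjusted by Benjamini-Hochberg over all genes tested, and called below 0.05. SEs derive from the F statistic and are approximate. The smallest p of an exact permutation test of 2 libraries against 2 is 0.333. The code was tested on simulated data. Genes named are the 9 members, all counterparts, stem cell markers and deleted genes, up to 4 called genes per other list with the largest joint change, the 5 most similar profiles and 3 further germline genes chosen after their values were seen. Max, Mga, E2f6 and Rybp were named further, for site binding or a rise with both changes, and Zp3 for its level. They too were chosen after their values were seen. The members and lists were chosen with earlier results of these data known. Alternatives covered scaling, DESeq2 1.42.0, filters, the replicate block, fits of 2 groups and leaving out each library. In the table, 4 rows carry names that became dates and were kept apart.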

Additional observations from a re-analysis of the deposited data

Results flagged for a closer look

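The TSA effect differed between the genotypes by the interaction test for 2 of the 9 genes. For Nxf2 the TKO effect less the wild type effect was -2.83 on the log2 scale, from 0.310 to 2.10 CPM in wild type and from 8.17 to 7.76 CPM in TKO (DMSO to TSA), with 3 and 5 counts in the wild type DMSO libraries. For Stk31 the difference was -1.58, from 22.9 to 48.7 CPM in wild type and from 61.2 to 43.7 CPM in TKO. With 2 libraries per group, single samples far from their group were not looked for.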

How the results depend on the processing

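The 9 genes gave 63 comparisons over the 7 contrasts, of which 44 were called. None of the 44 changed direction in any of the alternatives tried, and 18 of their 658 alternative values were no longer called. Those were of the interaction for Nxf2 and Stk31, TSA in TKO for Dazl and Slc25a31, TSA in wild type for Rnf17, and the comparison of the single changes for Rnf17. Of the 278 alternative values of the 19 uncalled comparisons, 16 became called and 15 changed sign. The count of members called for the interaction ran from 0 to 3 when single libraries were left out. It was 0 in edgeR in 5 of these fits, where 4 to 7 members had an unadjusted p below 0.05, and 3 with DESeq2, without the filter on low counts, and with the replicate block. The titles share replicate numbers, and nothing says what a number marks. Same-numbered deviations correlated at 0.0673 to 0.325 between groups, positive in every pair. Whether samples of the same number share a batch was not tested, and the main fit left the number out. With the replicate block, members called went from 6 to 7 for TKO in DMSO (D1Pas1) and for TSA in TKO (Stk31), from 2 to 3 for the interaction (Ddx4, edgeR adjusted p 0.0348), and 633 in place of 213 genes were called for the interaction. Over all genes, that number was also 394 with DESeq2, 488 without the filter, and 10 to 410 without single libraries (10 without TKO DMSO replicate 2). For TKO in DMSO 1458 genes were called without TKO DMSO replicate 2, in place of 3220, and for TKO in TSA 941 without wild type TSA replicate 1, in place of 2910. Total counts as the only scaling moved the median of all genes for TSA in wild type from 0.01 to 0.22.

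The 15 changes of sign were all in uncalled comparisons. With total counts the log2 fold change was 0.045 for Ddx4 with TSA in wild type and 0.069 for Nxf2 with TSA in TKO. Without single libraries, the values ran from -0.36 to 0.055 for Ddx4 and from -0.30 to 0.11 for Nxf2 in these comparisons, from -0.10 to 0.42 for Ctcfl with TSA in TKO, from -0.29 to 0.35 for Rnf17 with TKO in DMSO, from -0.38 to 0.042 for Stk31 and from -0.092 to 0.31 for Rnf17 with TKO in TSA, from -0.23 to 0.080 for Ddx4 between the single changes, and from -0.25 to 0.38 for the interaction of Rnf17. The cause was not tested. Depth limits Nxf2 most, with 8 counts in wild type DMSO.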

Other observations

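Among the 19 other germline genes, 3 chosen after their values were seen had patterns unlike most of the list. Tdrd1, a tudor domain gene of the piRNA pathway, fell with TKO alone, from 11.5 ± 2.13 to 1.86 ± 0.17 CPM (SD, n = 2; edgeR adjusted p 0.000123), and stayed low with both changes at 2.22 ± 0.30. Hormad1, which encodes a protein of the meiotic chromosome axis, rose with TKO alone from 8.29 ± 3.86 to 42.7 ± 2.88 CPM and fell to 10.9 ± 1.36 when TSA was added (SD, n = 2; edgeR adjusted p 0.000361 and 0.000165). Fkbp6, a germ cell cochaperone gene, rose with TKO alone from 3.11 ± 1.67 to 55.9 ± 2.24 CPM and fell to 26.2 ± 1.61 when TSA was added (SD, n = 2; edgeR adjusted p 4.14e-06 and 0.000587).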
